A study of Mus musculus with 6 samples.

Results

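The genes of 2 ribosomes were followed in colon organoids, the ribosome of the cytosol and the ribosome of the mitochondrion. Members were the rows of the expression table whose symbol began with Rpl or Rps followed by a digit, together with Rplp0, Rplp1, Rplp2 and Rpsa, for the cytosolic ribosome, and with Mrpl or Mrps followed by a digit for the mitochondrial one. Rows whose symbol carried -ps, the mark of a pseudogene, were dropped (223 rows), as were the Rps6k kinases (10 rows). This gave 171 of 29940 genes, 93 of the cytosolic ribosome (54 of the large and 39 of the small subunit) and 78 of the mitochondrial ribosome (49 and 29). Ribosome and subunit were assigned by the start of the symbol alone, so single members may be placed wrongly. All 78 mitochondrial and 86 of the 93 cytosolic members are annotated as protein coding. The other 7, among them Rpl6l, Rps3a2, Rps3a3, Rps4l and Rpl37rt, are annotated as processed pseudogenes that bear a gene symbol without -ps.

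The libraries were RNA-seq of organoids grown in Matrigel from large-intestinal crypts of C57BL/6J mice, an inbred strain, for which the labels add no genotype and no age. After 2 days in culture the organoids were left untreated (Ctrl, 3 libraries) or received TNFα (TNF, 3 libraries), an inflammatory cytokine, and were harvested at 24 h. No TNF dose is recorded in the labels. They also leave unsaid whether the 3 libraries of a group came from different mice or wells, so each p-value reflects the spread among these libraries, possibly a technical one.

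Each ribosome is built from a large and a small subunit. Cytosolic ribosomal proteins are made in the cytosol, carried into the nucleolus and joined to ribosomal RNA there, and their mRNAs belong to the TOP class, which starts with a tract of pyrimidines through which mTORC1 and Larp1 control translation. Mitochondrial ribosomal proteins are encoded in the nucleus, imported and assembled on mitochondrial ribosomal RNA, and their ribosome makes the few subunits of the respiratory chain that mitochondrial DNA encodes. Dividing crypt cells are known for a high demand for new cytosolic ribosomes.

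Start sites are shown for 4 cytosolic members, because the pyrimidine tract is the feature that defines TOP mRNAs. Rps6, Rps9 and Rpl14 hold such a run, and Rpl36al stands for the matched cytosolic genes without one, which include Rpl22. Each window holds 15 bases before the annotated RefSeq start (GRCm38.p6) and 15 bases from it, and capitals mark a C followed by at least 6 more C or T, searched on the transcribed sense strand within 10 bases of the start.
Rps6, chr4:86857353-86857382, minus strand: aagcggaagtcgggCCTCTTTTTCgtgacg
Rps9, chr7:3704026-3704055, plus strand: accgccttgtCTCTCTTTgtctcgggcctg
Rpl14, chr9:120571502-120571531, plus strand: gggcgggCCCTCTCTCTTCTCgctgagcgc
Rpl36al, chr12:69184053-69184082, minus strand: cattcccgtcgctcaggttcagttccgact
RefSeq promoters of 250 bases before and 50 after the start were matched by symbol for 68 cytosolic and 69 mitochondrial members, and a gene with several promoters was counted if any of them held the motif. The pyrimidine run was present in 47.1% of these cytosolic and 10.1% of these mitochondrial genes, in 14.1% of all 27025 genes of the table and in 15.2% of the tested genes. The runs may be missed where the annotated start is not the one used in these cells, which was not tested.

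Upstream sequence is shown for Rps6 and for the 2 mitochondrial members that differed with TNF, since it holds the short motifs most often described for these gene families. Capitals in Rps6 mark CGGAAG, the core bound by ETS factors, on either strand, and capitals in the mitochondrial genes mark the core bound by NRF1, a factor that acts on nuclear genes of mitochondrial proteins. Each window is the 120 bases before the start in GRCm38.p6.
Rps6, chr4:86857368-86857487, minus strand: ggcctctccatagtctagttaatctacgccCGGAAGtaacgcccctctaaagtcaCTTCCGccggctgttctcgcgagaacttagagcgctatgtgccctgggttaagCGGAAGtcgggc
Mrpl45, chr11:97315596-97315715, plus strand: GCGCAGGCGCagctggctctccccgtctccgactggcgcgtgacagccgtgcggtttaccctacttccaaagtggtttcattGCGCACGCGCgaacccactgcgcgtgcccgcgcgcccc
Mrps21, chr3:95871515-95871634, minus strand: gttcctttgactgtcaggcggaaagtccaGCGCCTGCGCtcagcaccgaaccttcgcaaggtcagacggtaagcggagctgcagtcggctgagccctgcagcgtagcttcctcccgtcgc
The ETS core was found for 64.7% of cytosolic and 56.5% of mitochondrial genes, against 18.8% of all genes and 37.3% of tested genes. The NRF1 core was found for 8.82% of cytosolic and 18.8% of mitochondrial genes, against 5.19% of all and 12.3% of tested genes. AAGATGGCG, a core of YY1 sites, was found for 5.88% and 11.6%, against 1.64% of all and 3.95% of tested genes. For the NF-κB site a single exact sequence was searched, with no variants allowed. It was found for 0 of 68 cytosolic and 0 of 69 mitochondrial genes, against 0.174% of all and 0.281% of tested genes. With a sequence this rare, sets of this size would be likely to hold 0 in any case. The counts therefore cannot show whether these promoters lack NF-κB sites, and other forms of the site were not searched. All motifs other than the pyrimidine run were searched on both strands, matches of different motifs may overlap, and a match is a description of letters only.

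Values were FPKM (fragments per kilobase, corrected for the size of each library), a level per length, and the libraries held an estimated 28055400 to 32192900 reads in genes. A gene was tested if its mean reached 1 FPKM, which 12350 genes did, and called if limma's moderated test on log2(FPKM + 1) gave a Benjamini-Hochberg adjusted p below 0.05 over those genes. The TNF response was visible in 3 of 3 checked targets, with log2 changes of 2.43 for Nfkbia, 2.24 for Tnfaip3 and 3.00 for Icam1. Epithelial markers were abundant, their summed level being 3577 to 3900.3 FPKM in Ctrl and 3926 to 4198 in TNF, with 3 of 9 called higher and 2 called lower, and 4 of 5 colon epithelium markers were lower. The summed level of 11 leukocyte markers was 8.78 to 23.2 FPKM in Ctrl and 7.95 to 24.2 in TNF (2 tested, 0 called), and the pan-leukocyte gene Ptprc was at 0.146 to 0.198 and 0.374 to 0.382. Within this list the macrophage gene Lyz2 stood at 4.65 in Ctrl 1 and 2.72 in TNF 3, and at 15.6 to 16.0 in the other libraries. Markers of stroma summed to 11.2 to 22.2 and 8.53 to 11.1 FPKM (5 of 10 tested, 2 lower), those of endothelium to at most 0.665, and those of enteric nerve to 3.36 to 4.48 and 13.0 to 14.5 (2 of 3 tested, both higher). In bulk libraries, fewer cells of a type and less RNA per cell cannot be told apart. The part of these marker differences in the results for ribosomal protein genes was not tested.

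The cytosolic ribosome stood far above the mitochondrial one in level. Among tested members, the median level was 94.6 FPKM for the 88 cytosolic and 8.33 FPKM for the 78 mitochondrial genes, and the ranges overlapped. Rplp0, which forms the base of the stalk that binds translation factors, stood highest, at 1269.8, 1403 and 1240.2 FPKM in Ctrl and 1203, 1225 and 1276 FPKM in TNF. Rps3a1, of the small subunit, followed with 892, 970 and 810 FPKM in Ctrl and 858, 886 and 861 FPKM in TNF. Rpl4, of the large subunit, had 885, 967 and 887 FPKM in Ctrl and 842, 828 and 810 in TNF. Rplp0 stood above the other 2 in every library, while the ranges of Rps3a1 and Rpl4 overlapped. The lowest tested cytosolic members were Rpl37rt and Rps3a3, with means of 5.25 and 5.56 FPKM, both annotated as processed pseudogenes. Paralogs known for muscle (Rpl3l) and testis (Rpl39l) were near 0, with means of 0.0427 and 0.022 FPKM in Ctrl and every TNF library listed at 0. Rpl3l, Rpl39l and 3 further members, Rpl32l, Rps12l1 and Rps23rg1, did not reach the filter and were not tested.

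In the mitochondrial ribosome Mrpl12, a stalk protein that has also been described as a partner of the mitochondrial RNA polymerase, was highest. It had 43.0, 50.8 and 40.5 FPKM in Ctrl and 43.1, 41.9 and 44.1 in TNF, and the groups overlapped (log2 difference -0.05, SE 0.08, limma adjusted p = 0.691). Mrpl18 followed with a mean of 35.3 FPKM in Ctrl and 36.6 in TNF, and Mrpl34 with 31.2 and 36.1. The lowest were Mrpl33 and Mrps16, with means of 2.02 and 2.34 FPKM over all libraries. The deposited unit divides by the exonic length of all listed transcripts, which for cytosolic members was a median of 1.83 times that of the principal transcript, for mitochondrial ones 1.31 times. Per principal transcript the medians were 221 and 14.4, over the 79 and 71 members that have one, not all of them tested. The median FPKM of these same members was 104 and 8.56.

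**Figure D1:**
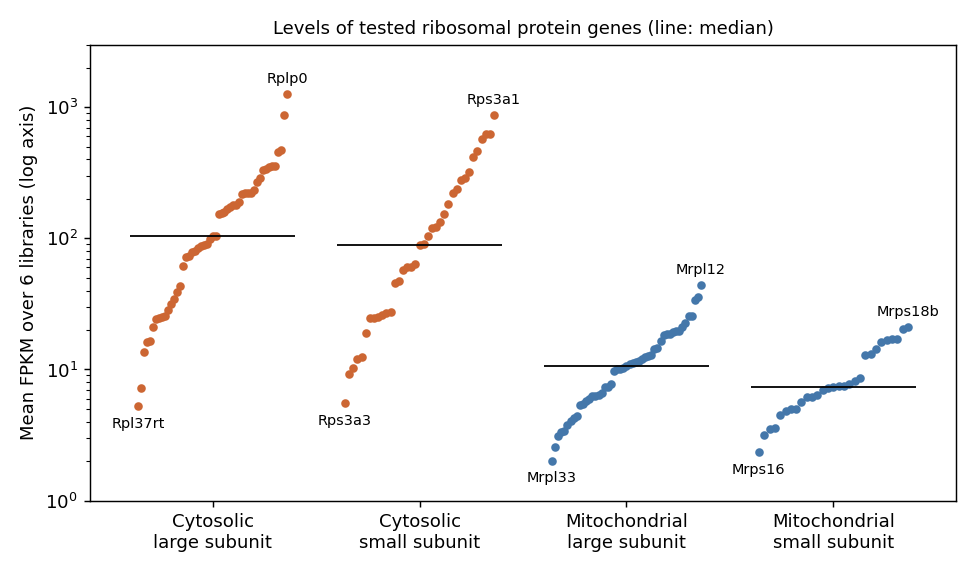
Mean FPKM over the 6 libraries (log axis) of each tested ribosomal protein gene, sorted within its subunit, with the median as a line and the lowest and highest gene named. Cytosolic members centre on 104 and 88.6 FPKM in the large and small subunit, mitochondrial ones on 10.6 and 7.35.

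Few ribosomal protein genes were called with TNF in this test, while some other settings, given below, called more cytosolic members. In the cytosolic ribosome 1 of 88 tested members was called higher (Rpl36al) and 1 lower (Rpl22), and 86 were not called. In the mitochondrial ribosome 2 of 78 were called higher (Mrpl45 and Mrps21) and 0 lower, where 6 were lower at an unadjusted p under 0.05. Together 4 of 166 members, or 2.41%, were called, against 24.0% of all tested genes (12.9% higher and 11.1% lower). Among the 2422 tested genes of at least 20 FPKM, 34.6% were called. At an unadjusted p under 0.05 stood 11 cytosolic members (1 higher, 10 lower) and 12 mitochondrial members (6 higher, 6 lower), which are 12.5% and 15.4% against 36.1% of all tested genes.

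Most members had narrow intervals. The 95% interval of the change lay within 1.5-fold in either direction for 83 of 88 cytosolic and 77 of 78 mitochondrial members, as it did for 86.5% of all tested genes. The exceptions were Rpl17, Rpl7a, Rps27, Rps27rt, Rps3a2 and Mrpl53. The median SE of a log2 difference was 0.07 in both ribosomes and over all tested genes. Over the tested genes of at least 20 FPKM it was lower, 0.05. The median SD within groups, in log2, was 0.102 for cytosolic members, 0.0894 for mitochondrial members and 0.0793 for all tested genes. The part of this spread in the shares of called members was not tested. The median log2 difference was -0.07 in the cytosolic ribosome, the same in its large and its small subunit, and it was negative in 65 of 88 members. It was -0.01 in the mitochondrial ribosome, negative in 42 of 78, and -0.00 over all tested genes. TNF values lay wholly above Ctrl values in 2 and wholly below in 11 cytosolic members, together 14.8%, and in 9 and 10 mitochondrial members, together 24.4%. Over all tested genes this share was 41.4%, with 21.0% above and 20.4% below.

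**Figure D2:**
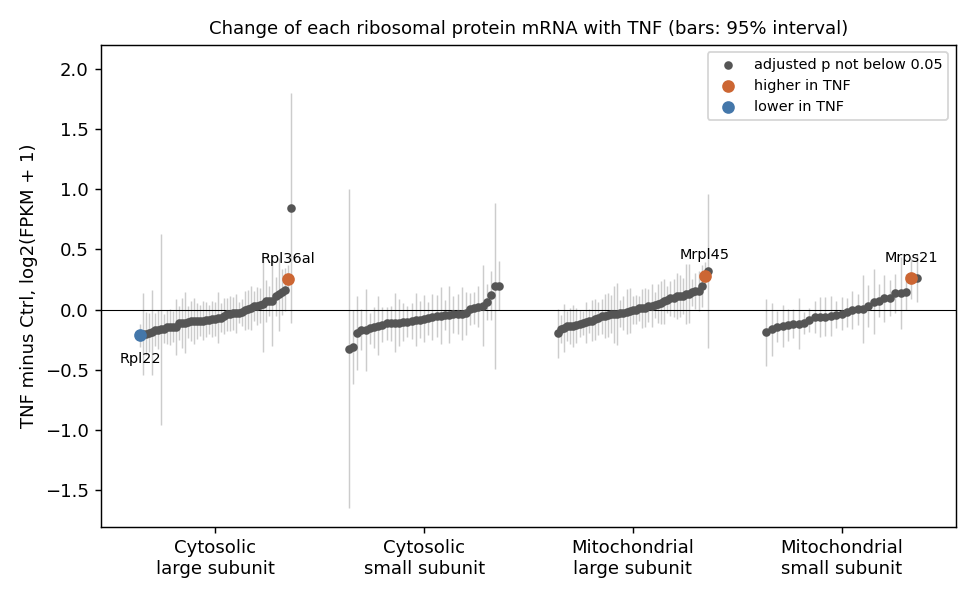
Difference between TNF and Ctrl in log2(FPKM + 1) for each tested member, sorted within its subunit, with the 95% interval of limma as a grey bar and called members named. Most points lie near 0 and the widest bars belong to Rps27 and Rpl17.

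The median of the cytosolic members depended on single Ctrl libraries. Ctrl 2 held the highest value of the 6 libraries in 58 of the 88 cytosolic members, against 16.1% of all tested genes, and Ctrl 3 held the lowest in 38 and the highest in 0. In the mitochondrial ribosome Ctrl 2 was highest in 28 of 78. Without Ctrl 2 the median log2 difference of the cytosolic members was -0.02, and without Ctrl 3 it was -0.13, with 11 members called lower instead of 1. Over the whole table the genes called lower went the other way, from 1374 with all libraries to 1025 without Ctrl 3. After quantile normalization, which forces the 6 libraries to 1 distribution, 16 cytosolic members were called lower and 2 higher, among them Rpl3 (-0.21) and Rpl32 (-0.25) as lower and Rpl10 (0.13) as higher. Under that setting 1543 of the 12350 tested genes were called lower and 1480 higher. The share called lower was then larger among the 88 cytosolic members than over all tested genes, so the low count of calls depends on the scaling.

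Summed levels showed the same spread. Cytosolic members took 4.75%, 5.17% and 4.57% of the summed FPKM in Ctrl and 4.57%, 4.56% and 4.76% in TNF. The groups overlapped, Ctrl 2 being the highest of the 6 and Ctrl 3 among the low ones. Mitochondrial members took 0.262%, 0.273% and 0.259% in Ctrl and 0.267%, 0.264% and 0.269% in TNF, and all TNF values lay between the lowest and the highest Ctrl value. The ratio of group means was 0.959 for the cytosolic and 1.01 for the mitochondrial members, with group means of 4.83% ± 0.307 and 4.63% ± 0.115 (SD, n = 3) for the former. The dropped -ps rows of cytosolic genes took a further 0.999% ± 0.0602 in Ctrl and 0.921% ± 0.0401 in TNF.

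**Figure D3:**
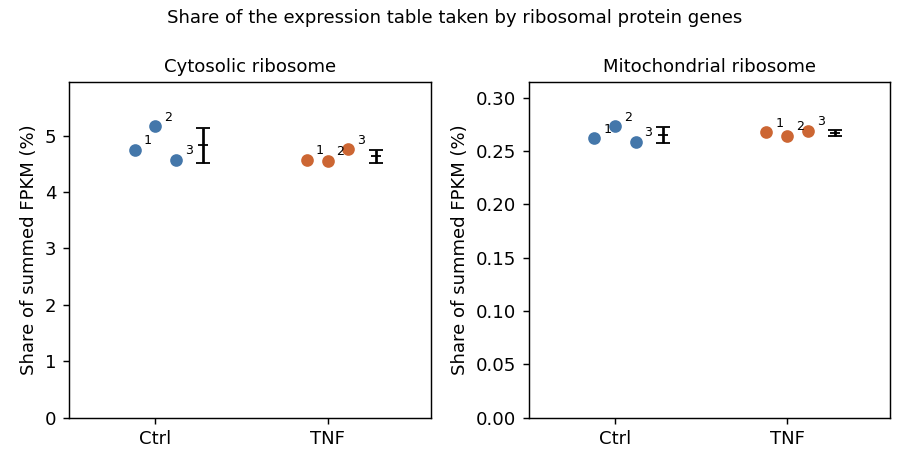
Share of the summed FPKM of each library, in percent, taken by cytosolic and by mitochondrial ribosomal protein genes. Points are libraries with their replicate number, bars are the mean and SD of 3, and the shares run from 4.56% to 5.17% and from 0.259% to 0.273%.

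Rpl22, a protein of the large subunit that is dispensable for growth of mice but needed for some T cells, was the cytosolic member called lower. It lies on chromosome 4 (152325742 to 152334071, GRCm38) and had 46.8, 48.7 and 45.3 FPKM in Ctrl and 39.7, 41.3 and 39.9 in TNF. All 3 TNF values lay below all Ctrl values. The log2 difference was -0.21 (SE 0.04, limma adjusted p = 0.0093), and mean TNF was 0.859 times mean Ctrl. Its paralog Rpl22l1, which can take its place in the ribosome and is known to rise in mice without Rpl22, had 6.66, 7.64 and 6.12 FPKM in Ctrl and 7.78, 8.03 and 7.06 in TNF. These groups overlapped, and Rpl22l1 was not called (log2 difference 0.15, adjusted p = 0.236). The ratio of Rpl22l1 to Rpl22 was 0.142, 0.157 and 0.135 in Ctrl and 0.196, 0.195 and 0.177 in TNF. Every TNF ratio stood above every Ctrl ratio, which gives a two-sided exact permutation p of 0.1, the smallest that 3 against 3 libraries allow (0.2 when adjusted over the 4 paralog pairs compared). The ratio uses the same Rpl22 values that gave the call, so it is not independent of it.

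Rpl36al, a paralog of the large-subunit gene Rpl36a, was the cytosolic member called higher. It lies on chromosome 12 (69182731 to 69184083) and had 35.5, 37.2 and 32.9 FPKM in Ctrl and 41.9, 42.0 and 42.6 in TNF. The groups did not overlap, and the TNF values lay close together (log2 difference 0.26, SE 0.05, limma adjusted p = 0.00957). Its exons overlap those of the predicted gene Gm49383 on the same strand, which had at most 0.136 FPKM in any library. Rpl36a had 35.1, 32.9 and 29.2 FPKM in Ctrl and 31.0, 28.7 and 31.3 in TNF, with overlapping groups (log2 difference -0.09, adjusted p = 0.399). The ratio of Rpl36al to Rpl36a was 1.01, 1.13 and 1.12 in Ctrl and 1.35, 1.46 and 1.36 in TNF. Here too each TNF ratio exceeded each Ctrl ratio (exact permutation p = 0.1, adjusted over the pairs 0.2), and this ratio is not independent of the Rpl36al call. The transcripts of Rpl36a and Rpl36al agree at 87.8% of 329 aligned bases, with 40 mismatches and a longest identical stretch of 24 bases. Whether any fragments were assigned to the wrong member of the pair was not tested. Neither Rpl22 nor Rpl36al was called when Ctrl 1 and TNF 3 were both left out, with adjusted p values of 0.109 and 0.0947.

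The other 2 paralog pairs, which hold no called gene, gave no such separation. The ratio of Rpl7l1 to Rpl7 was 0.0709, 0.0662 and 0.0745 in Ctrl and 0.0727, 0.0714 and 0.0689 in TNF (exact permutation p = 0.9). Rps27l, a p53-responsive paralog of Rps27, had 23.7, 25.6 and 20.1 FPKM in Ctrl and 28.6, 25.1 and 26.2 in TNF. The groups overlapped and it was not called (log2 difference 0.20, adjusted p = 0.147). The ratio of Rps27l to Rps27 was 0.793, 1.03 and 2.34 in Ctrl and 1.27, 1.11 and 4.37 in TNF (exact permutation p = 0.5). This ratio is uncertain, because Rps27 shares its sequence with the copy Rps27rt, as described below.

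Mrpl45, which lines the exit of the peptide tunnel and holds the mitochondrial ribosome to the inner membrane, was called higher. It lies on chromosome 11 (97315716 to 97329920) and had 18.2, 17.4 and 16.7 FPKM in Ctrl and 20.9, 22.2 and 21.2 in TNF. The groups stood clearly apart (log2 difference 0.28, SE 0.05, limma adjusted p = 0.00422), and the call was made under 17 of 17 other settings. Its upstream window, printed above, holds 2 NRF1 cores. Members that were not called, such as Mrpl12 and Mrpl44, hold the core as well, and a link with the call was not tested. Mrps21, a small-subunit protein encoded on chromosome 3 (95862634 to 95871519), had 13.5, 12.3 and 13.1 FPKM in Ctrl and 17.7, 14.9 and 14.7 in TNF. TNF 1 was the highest of the 6, and the lowest TNF value exceeded the highest Ctrl value (log2 difference 0.26, SE 0.07, adjusted p = 0.0401). This call was made under 9 of 17 other settings and was lost when any library but TNF 3 was left out (adjusted p up to 0.104).

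**Figure D4:**
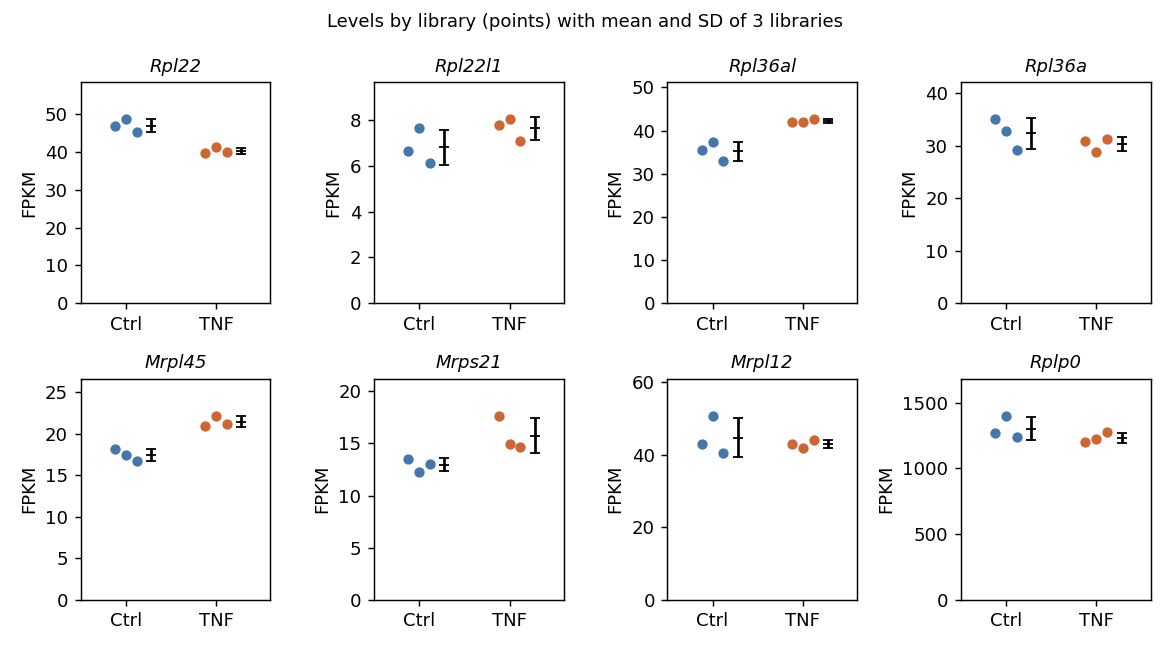
FPKM of 8 ribosomal protein genes in each library (points), with the mean and SD of 3 libraries per group. Rpl22 lies lower and Rpl36al, Mrpl45 and Mrps21 lie higher in TNF without overlap, while the paralogs Rpl22l1 and Rpl36a and the 2 top-expressed genes Mrpl12 and Rplp0 overlap.

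The other members that are known for roles beyond the ribosome were not called. Rpl5 and Rpl11, which with 5S RNA bind and inhibit Mdm2 when ribosome assembly is disturbed, had log2 differences of -0.06 and -0.10 (limma adjusted p = 0.413 and 0.243). Rps6, the substrate of S6 kinases, had 628, 698 and 588 FPKM in Ctrl and 621, 616 and 622 in TNF. The TNF values lay inside the Ctrl range, with a log2 difference of -0.04 (SE 0.07, adjusted p = 0.728) and a 95% interval from -0.19 to 0.12. Rpl3, which helps form the peptidyl transferase centre, had 345, 377 and 342 FPKM in Ctrl and 311, 316 and 325 in TNF. Its groups did not overlap, but the log2 difference of -0.16 missed the threshold (adjusted p = 0.0629). Rpsa, a small-subunit protein also described as a laminin receptor, likewise separated without a call (log2 difference -0.11, adjusted p = 0.212). The stalk genes Rplp0, Rplp1 and Rplp2 had differences of -0.08, -0.14 and -0.05, with adjusted p values of 0.441, 0.353 and 0.622. Rpl10, a late-joining large-subunit protein, had 0.03 (adjusted p = 0.719). Rps19bp1, caught by the symbol rule although it encodes a nucleolar binding partner of Rps19 and not a subunit, had 0.01 (adjusted p = 0.954).

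Mitochondrial members with special roles gave small differences as well. Mrps12, Mrps5 and Mrps27 of the small subunit had log2 differences of -0.02, -0.04 and -0.06, and Mrpl10, Mrpl11 and Mrpl44 of the large subunit had -0.07, 0.11 and -0.09. Mrpl58, a subunit that also releases peptides from stalled ribosomes, had 5.56, 5.86 and 5.44 FPKM in Ctrl and 6.36, 6.34 and 6.23 in TNF. All TNF values lay above all Ctrl values, but it was not called (log2 difference 0.14, adjusted p = 0.0697). The 3 homologs of bacterial protein S18, Mrps18a, Mrps18b and Mrps18c, occupy different sites of the ribosome and had -0.00, 0.07 and -0.05, none of them called.

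Some of the widest intervals belonged to genes that share sequence with copies elsewhere. Rps27 and its processed copy Rps27rt have transcripts that are identical over 341 of 341 aligned bases, shown here by their start sites, where capitals mark the 18 bases that both windows share.
Rps27, chr3:90213630-90213659, minus strand: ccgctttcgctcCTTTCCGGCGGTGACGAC
Rps27rt, chr9:114982721-114982750, minus strand: cttatcccttgCTTTCCGGCGGTGACGACc
Rps27, a zinc-binding small-subunit protein, had 30.0, 24.8 and 8.56 FPKM in Ctrl and 22.5, 22.7 and 6.00 in TNF. Rps27rt had 37.9, 49.0 and 73.5 FPKM in Ctrl and 49.0, 46.9 and 90.7 in TNF. The libraries numbered 3 in both groups were lowest for Rps27 and highest for Rps27rt. Summed as fragments per 1000000, the pair gave 45.4, 44.2 and 36.4 in Ctrl and 41.7, 41.2 and 40.2 in TNF, a much narrower range. The windows shown begin 11 bases before each annotated start, and the shared stretch begins near it.

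Rpl17 and Rpl7a also have near-identical copies. Rpl17, a protein near the peptide exit, had 46.9, 37.5 and 80.4 FPKM in Ctrl and 76.7, 60.9 and 179 in TNF, with TNF 3 far above the rest and the groups overlapping (log2 difference 0.84, SE 0.41, limma adjusted p = 0.187). Its retrocopies Rpl17-ps5 and Rpl17-ps10 match its transcript at 99.6% and 99.3% of 555 bases. Rpl17-ps10 had 313, 363 and 232 FPKM in Ctrl and 249, 269 and 103 in TNF, lowest where Rpl17 was highest. Rpl17 with its 7 -ps rows summed to 547, 589 and 531 fragments per 1000000 in Ctrl and 497, 530 and 535 in TNF. Rpl7a had 191, 222 and 141 FPKM in Ctrl and 93.2, 177 and 260 in TNF, and Rpl7a-ps11, identical to its transcript at 99.8% of 801 bases, had 267, 266 and 315 in Ctrl and 337, 258 and 205 in TNF. Rpl7a with 6 -ps rows summed to 563, 621 and 513 fragments per 1000000 in Ctrl and 447, 533 and 634 in TNF. How the authors' counting divided fragments between such copies is not stated in the labels, so the single values of these genes are uncertain. Of the members, 56 cytosolic and 4 mitochondrial ones have at least 1 -ps row in the table.

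**Figure D5:**
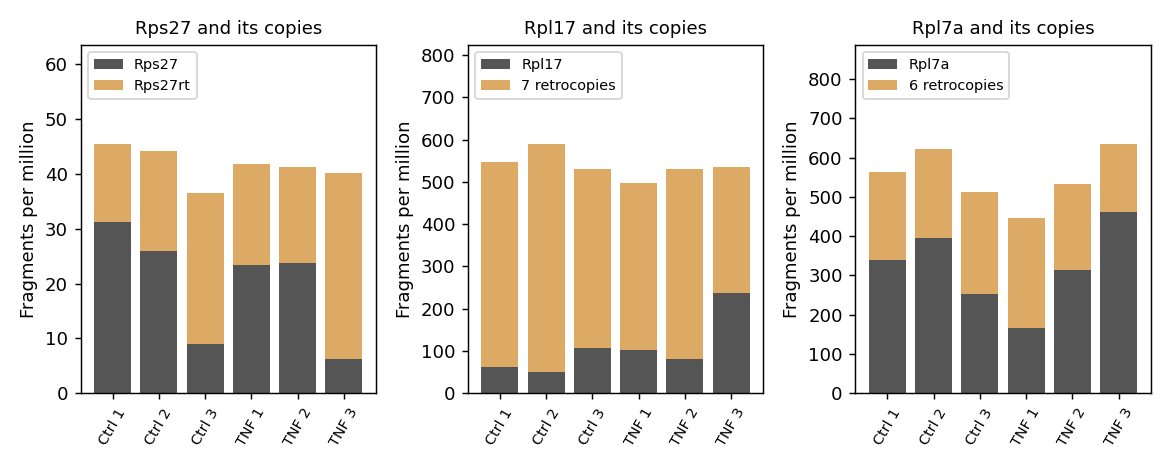
Fragments per 1000000 of Rps27, Rpl17 and Rpl7a (grey) and of their copies (tan), stacked by library. The split within a pair varies more between libraries than the stacked total does for Rps27 and Rpl17.

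Proteins of the same ribosomes that carry other names gave the same picture. Fau, a small-subunit protein made as a fusion, and the scaffold Rack1 had log2 differences of -0.07 and -0.13, and 0 of 2 were called by limma (1 of 2, Rack1, had an unadjusted p under 0.05). Of 5 mitochondrial subunits with other names, 0 were called. Dap3, a GTP-binding small-subunit protein, had 8.75, 9.61 and 8.27 FPKM in Ctrl and 8.09, 7.49 and 6.91 in TNF. These groups did not overlap, and the log2 difference was -0.22 (adjusted p = 0.0646). Gadd45gip1, Chchd1, Ptcd3 and Aurkaip1 had 0.09, 0.05, -0.02 and 0.00.

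Genes that make or serve the cytosolic ribosome held called genes in both directions, to be read beside the 12.9% of all tested genes called higher and the 11.1% called lower. Of 85 factors of nucleolar processing and assembly, 7 were called higher and 1 lower, fewer in both directions than those shares would give. Eif6, which keeps the large subunit from joining the small one, rose from 38.5 ± 3.16 to 61.7 ± 0.231 FPKM (mean ± SD, n = 3 per group), a log2 difference of 0.67 (SE 0.06, limma adjusted p = 0.000187). Efl1, the GTPase that removes Eif6 from the large subunit, rose with a log2 difference of 0.38 (adjusted p = 0.00195), and Utp3 with 0.18, while the assembly factor Nop53 fell (-0.22). Of 14 genes of RNA polymerase I, 0 were higher and 2 lower, Cd3eap (-0.25) and Taf1d (-0.23). Cytosolic aminoacyl-tRNA synthetases, which load amino acids on tRNA, had 7 of 19 called higher and 0 lower, led by Vars (0.34), Aars (0.25) and Nars (0.21). Of 16 other products of TOP mRNAs, 1 was higher (Eif3a, 0.15) and 3 lower (Eif4b, -0.23, Eif3f, -0.55, and Eef1b2, -0.19). The remaining 12 were not called, and the median log2 difference of the 16 was -0.07. Their summed level, in which the most abundant members weigh most, was 8278 to 8700.4 FPKM in Ctrl and 7467 to 7648 in TNF. Several of these calls were lost when certain single libraries were left out. Utp3 and Taf1d lost theirs without Ctrl 1, TNF 1 or TNF 3, and also Utp3 without Ctrl 3 and Taf1d without Ctrl 2 (adjusted p up to 0.0945 and 0.11). Nop53 lost its call without Ctrl 1, Ctrl 3, TNF 1 or TNF 2 (up to 0.0602), and Cd3eap without Ctrl 1, Ctrl 2, TNF 1 or TNF 2 (up to 0.101). Eif3a and Eef1b2 lost theirs without any library but Ctrl 3 (up to 0.118 and 0.0948), and Eif3f without any TNF library (up to 0.0797).

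Genes that serve the mitochondrial ribosome, its own proteins left aside, were called lower or not at all in the lists read here. Of 41 tested genes of mitochondrial translation and ribosome assembly, 0 were higher and 6 lower, among them the membrane insertase Oxa1l (-0.23), the ribosomal RNA methyltransferase Mrm1 (-0.36) and the RNA-binding protein Lrpprc (-0.21). Of 17 mitochondrial aminoacyl-tRNA synthetases, 0 were higher and 5 lower, with Rars2 (-0.37), Mars2 (-0.24) and Iars2 (-0.20) among them. The summed level of the synthetases was 110.2 to 116 FPKM in Ctrl and 97.6 to 99.4 in TNF, and the mitochondrial ribosomal proteins, given above as shares, overlapped. Of 73 subunits of oxidative phosphorylation, 0 were higher and 1 was lower, Uqcrc1 (-0.16). These counts stand beside 12.9% of all tested genes called higher and 11.1% called lower, and differences between the lists were not tested. With single libraries left out, Lrpprc lost its call without Ctrl 1 (adjusted p = 0.0523), Iars2 without Ctrl 1, TNF 2 or TNF 3 (up to 0.0669), Mars2 without any library but Ctrl 1 (up to 0.0823) and Uqcrc1 without Ctrl 1, Ctrl 3, TNF 1 or TNF 2 (up to 0.119).

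Among 16 tested regulators 2 were higher and 3 lower, where 12.9% and 11.1% of all tested genes were. Trp53, which ribosomal stress activates through Rpl5 and Rpl11, rose from 27.4 ± 1.05 to 38.9 ± 1.68 FPKM (log2 difference 0.49, limma adjusted p = 0.000329), and its antagonist Mdm2 rose as well (0.23). Larp1, which binds TOP mRNAs, fell (-0.13), as did Eif4ebp2, a repressor of translation (-0.23), and Ppargc1a, a coactivator of mitochondrial genes (-0.31). The call of Larp1 was lost whichever library was left out (adjusted p 0.0579 to 0.133), that of Ppargc1a without Ctrl 1, Ctrl 3, TNF 1 or TNF 3 (up to 0.0695) and that of Mdm2 without Ctrl 1 (0.0531). Myc, an activator of ribosomal protein genes, was not called, with 28.2, 26.8 and 27.9 FPKM in Ctrl and 28.2, 26.1 and 26.8 in TNF (log2 difference -0.03, adjusted p = 0.66). Of 12 proliferation genes, 0 were called.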

How the data were processed

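RNA-seq of 6 organoid libraries (3 Ctrl, 3 TNF) was analysed from 1 table. The submitters' processing notes name cutadapt (version 1.9), FastQC and the build GRCm38. Aligner, counting program, strandedness and handling of shared reads are not stated there. The values deposited by the authors were taken as FPKM, already scaled by them to exonic length and library size. This unit is inferred, because the values times exonic length sum to nearly the same total in each library. Log2(FPKM + 1) was tested with limma (version 3.58.1, R 4.3.3; mean-dependent prior, group as the only term, two-sided, Benjamini-Hochberg), a scale that understates changes of low genes. The filter was a mean of 1 FPKM. The procedure was tested on simulated data, but its pass mark did not cover changes as small as those of the called members. Depth was estimated from the commonest low value of single-exon genes. Positions and lengths came from GENCODE on GRCm38, promoters from RefSeq. Members and lists were chosen with earlier results of these data known. Named genes were, per ribosome, the called, the 3 highest and the 2 lowest tested members, members with known roles, and up to 3 called genes per direction of each list. Other names were picked once their values had been seen. The result of 1 listed gene is not reported here. Alternatives covered pseudocount, filter, scaling, prior, replicate block, each left-out library, -ps rows and transcript length.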

Additional observations from a re-analysis of the deposited data

How the results depend on the processing

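The cytosolic median ran from -0.13 to -0.02 and its share ratio from 0.934 to 0.994 over all alternatives. The mitochondrial median ran from -0.03 to 0.02 and its share ratio from 0.989 to 1.02, so both crossed no change. Leaving out single libraries gave 1 to 2 cytosolic members higher and 1 to 11 lower (11 without Ctrl 3), 1 to 4 mitochondrial members higher, and 1134 to 1447 genes higher and 910 to 1175 lower over the whole table. Without both Ctrl 1 and TNF 3, an alternative chosen after seeing the data, 0 cytosolic members were higher and 0 lower, 2 mitochondrial ones were higher, and 817 genes were higher and 596 lower in the whole table. Quantile normalization called 2 cytosolic members higher (Rpl36al and Rpl10) and 16 lower, including Rpl22, Rpl3 (-0.21) and Rpl32 (-0.25). Over the whole table it called 1480 genes higher and 1543 lower. The cause was not tested. With the -ps rows summed into their members, also added later, 2 were lower. Without the filter, and with a constant prior, 1 mitochondrial member was higher. Deviations of same-numbered libraries had correlations of -0.00426, -0.101 and 0.00529, a hint that cannot settle whether the replicate numbers pair the samples. A replicate block gave 2 cytosolic members higher and 3 lower, 3 mitochondrial members higher and 1256 and 1004 genes in the whole table. Among the named genes' alternatives 107 lost a call, 10 gained one and 33 changed sign, the last in uncalled genes. As ranges over the settings that leave out libraries (the pair Ctrl 1 and TNF 3 included) these were Aurkaip1 -0.10 to 0.0742, Chchd1 -0.0491 to 0.14, Mrpl12 -0.12 to 0.0426, Mrpl18 -0.0337 to 0.12, Mrpl33 -0.00553 to 0.0508, Mrps12 -0.0496 to 0.00553, Mrps16 -0.0185 to 0.19, Mrps18a -0.0513 to 0.0418, Ptcd3 -0.0769 to 0.012, Rpl10 -0.00884 to 0.066, Rpl7 -0.0816 to 0.0164, Rplp2 -0.10 to 0.00694, Rps19bp1 -0.0386 to 0.0458, Rps27 -0.84 to 0.59, Rps3a1 -0.10 to 0.0302, Rps6 -0.0944 to 0.0284. Under quantile normalization they were Aurkaip1 -0.0102, Mrpl33 -0.0138, Rplp0 0.0102, Rps19bp1 -0.00737, Rps3a1 0.0354 and with libraries scaled to the same sum, Mrps18a 0.00901. Depth limits members near 1 FPKM most.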

Other observations

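Among the members, Mrpl53 varied most in the mitochondrial ribosome, with 7.54, 14.4 and 8.61 FPKM in Ctrl and 13.9, 8.39 and 16.7 in TNF; its exons overlap those of 2 other genes, and the groups overlapped. Of the untested members, Rps12l1 was listed at 2.51 FPKM in Ctrl 3 and at 0 in the other 5 libraries. Rpl32l had 0.861, 0.848 and 1.55 FPKM in Ctrl and 0.296, 0.781 and 0.679 in TNF. Mrps33 had 5.24, 5.18 and 4.59 FPKM in Ctrl and 6.80, 6.52 and 5.40 in TNF, without overlap and without a call (limma adjusted p = 0.0589).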
